A study of Mus musculus with 6 samples.

Results

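The genes described here build and switch on the motile cilium: axonemal dyneins, their assembly factors, radial spokes, tektins, the nexin link, its rulers and a pair of cilium regulators. They were taken by name from the deposited gene table, as all Dnah, Dnai, Dnal, Dnaaf, Rsph, Tekt and Drc genes plus Foxj1, Mcidas, Ccdc39, Ccdc40 and Ttc25, where protein_coding was among the transcript types listed. This gave 46 of 32759 genes, and for 18 of the 46 protein_coding was the only type listed. The antisense gene Dnah2os matched by name and was left out.

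RNA of mouse white adipose tissue was sequenced in 6 libraries. All mice were on a high-fat diet, 3 libraries without tetrahydroberberrubine (HFD 1 to 3) and 3 with this small molecule at 50 mg/kg/day (THBru 1 to 3). The design text gives the question as which biological processes the compound regulates. The labels give no depot, strain, sex, age or length of treatment, and do not say whether each library was a separate animal, so p-values measure only the spread between these libraries.

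The axoneme is the microtubule core of a cilium. In motile cilia, outer and inner dynein arms slide the outer doublets past each other, radial spokes and the nexin link regulate the sliding, and tektins lie within the doublet walls. Cells that carry many motile cilia line airways, brain ventricles, oviduct and the efferent ducts of the testis, and the sperm tail is built on a related axoneme. Fat cells carry at most a primary cilium, which has no dynein arms.

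Libraries stood apart before any axoneme gene was considered. Total counts were 67.2e6 to 77e6. The THBru libraries each held transcripts of another organ: the seminal vesicle list (9 genes) stood at 426419 CPM in THBru 1, the kidney tubule list (11 genes) at 964 CPM in THBru 2 and the epididymal epithelium list (12 genes) at 51164 CPM in THBru 3, where CPM are counts per 1e6 counts of the library. In HFD these lists summed to 531 to 635, 1.12 to 2.70 and 57.1 to 65.7 CPM. The mature adipocyte list, which checks the labelled tissue, summed to 25081 to 37457 CPM in HFD, 4998 CPM in THBru 1, 27003 CPM in THBru 2 and 2845 CPM in THBru 3. The part of these differences in the axoneme levels was not tested.

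Axoneme genes were at high levels in 2 of the 3 THBru libraries and at or below HFD levels in the third for most members. Summed over the 46 genes, they took 131, 149 and 133 CPM in HFD 1 to 3, 124 CPM in THBru 1, 1020.2 CPM in THBru 2 (95% Wilson interval 1013 to 1028) and 459 CPM in THBru 3 (454 to 464). In THBru 2, 43 of 46 members lay above the HFD range and 0 below it, where 41.2% of all genes lay above and 12.4% below. In THBru 3, 42 lay above and 0 below, where 47% and 23.2% of all genes did. In THBru 1, 10 lay above and 18 below, where 15.5% and 42.8% of all genes did, and the members' shares were 21.7% and 39.1%. The order of THBru 1 depends on scaling: with TMM factors its sum was 196 CPM against 121 to 146 CPM in HFD, with 19 members above and 13 below, where 31.4% and 25.6% of all genes were. On that scale 41 members lay above the HFD range in THBru 2 and 41 in THBru 3, where 31.8% and 43.6% of all genes did. Among the 31 members tested with more than 3 HFD counts, those over 8-fold the HFD mean numbered 2 in THBru 1, 21 in THBru 2 and 15 in THBru 3, where 2.86%, 4.19% and 7.74% of genes did so. Most tested members reached the minimum level only through the THBru libraries, so these counts are partly fixed by that filter and only describe the members tested. In bulk tissue, fewer cells of a type and less RNA per cell cannot be told apart.

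**Figure D1:**
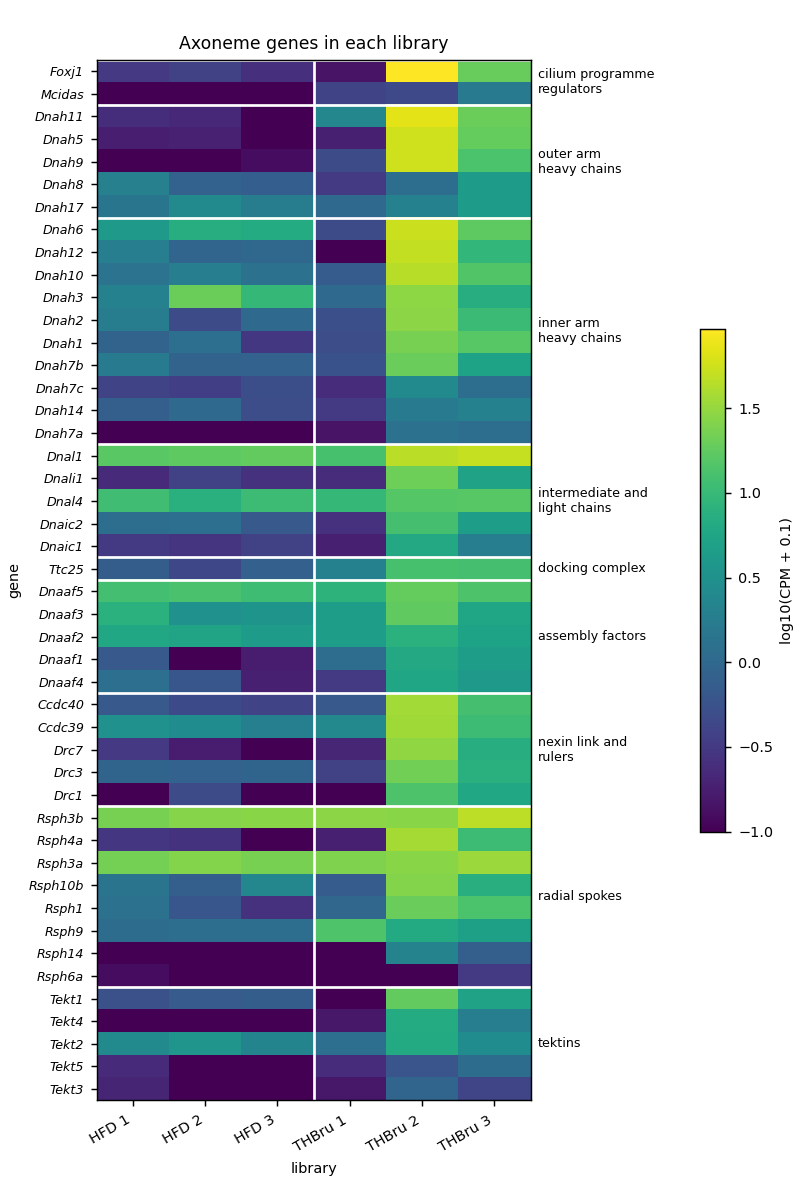
Levels of the 46 axoneme genes (rows, by role) in the 6 libraries (columns), coloured by log10(CPM + 0.1) of the total count. THBru 2 is the brightest column for 35 genes and THBru 3 for 10, while Rsph9 is brightest in THBru 1.

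The label of the group was checked with 34 genes of ciliated epithelium outside the name rule, such as Hydin of the central pair and Dynlrb2, a dynein light chain of ciliated cells. Their sum was 61.6 to 74.4 CPM in HFD, 59.0 CPM in THBru 1, 678 CPM in THBru 2 and 302 CPM in THBru 3. In HFD, 24 to 26 of the 34 were under 1 CPM, in THBru 1 27, in THBru 2 0 and in THBru 3 1. Hydin stood at 0.740, 0.404 and 0.514 CPM in HFD 1 to 3 and at 0.957, 53.5 and 16.5 CPM in THBru 1 to 3. Cfap44, a ciliary protein of sperm and motile cilia, stood at 0.338, 0.202 and 0.122 CPM in HFD and at 0.264, 66.1 and 22.5 CPM in THBru. By total count, the summed level was thus lowest in THBru 1 and highest in THBru 2, as for the members. The place of THBru 1 against HFD depends on single genes. Tppp3 stood at 31.3 to 36.8 CPM in HFD and at 7.02 CPM in THBru 1. Mns1 went the other way, at 1.86 to 3.39 CPM in HFD and 31.7 CPM in THBru 1. Lists of tissues with ciliated epithelium were read beside them: 7 genes of non-ciliated efferent duct cells summed to 760.1 to 1379 CPM in HFD and to 254, 2368 and 562 CPM in THBru 1 to 3. Aqp1 made up most of the HFD sum, at 693 to 1335 CPM, and the genes of the list did not share an order. Slc9a3 stood at 0 to 0.104 CPM in HFD against 0.388, 40.6 and 7.77 CPM in THBru 1 to 3. Car2 was highest in THBru 1 at 70.2 CPM. Esr1 stood at 16.9 to 35.8 CPM in HFD and at 15.5, 109 and 61.6 CPM in THBru. Lrp2 stood at 6.35, 44.8 and 1.47 CPM in HFD and at 0.804, 359.8 and 98.9 CPM in THBru. Cubn stood at 1.41 to 1.97 CPM in HFD and at 0.361, 38.8 and 0.833 CPM in THBru. All of these but Car2 were highest in THBru 2, the library with the kidney tubule transcripts, whose part in them was not tested. Of the 3 oviduct epithelium genes, Pax8, which is also in the efferent duct list and a gene of kidney, stood at 0.230 to 0.507 CPM in HFD and at 2.29, 52.3 and 237 CPM in THBru. Sox17 stood at 27.1 to 70.8 CPM in HFD and at 10.1, 75.1 and 8.30 CPM in THBru, and Ovgp1 at 0.961 to 3.69 CPM in HFD and at 3.15, 6.35 and 5.39 CPM in THBru, so the 3 genes did not share an order of libraries. The 8 general epithelium genes summed to 7.09 to 105 CPM in HFD and to 1065, 412 and 1649 CPM in THBru, so they were also high in THBru 1. The part of these cell types in the axoneme levels was not tested.

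Foxj1, the forkhead factor that switches on motile cilium genes, had the highest axoneme-gene level per length in THBru 2, at 34.6 FPKM (fragments per kilobase of transcript per 1e6 fragments). It stood at 0.208, 0.274 and 0.149 CPM in HFD 1 to 3, 0.0416 CPM in THBru 1, 93.3 CPM in THBru 2 and 19.1 CPM in THBru 3. THBru 1, with 3 counts, was below every HFD library, and both other THBru libraries were far above them, so the groups overlapped. The log2 fold change was 7.31 (SE 2.19, edgeR adjusted p = 0.18), and it was 5.42 without THBru 2 and 7.87 without THBru 1. Foxj1 (ENSMUSG00000034227) lies on chromosome 11 at 116330704 to 116335399, minus strand (GRCm38).

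Mcidas, the coactivator multicilin that starts multiciliated cell formation, had the opposite order of THBru 2 and THBru 3. It was listed at 0 counts in every HFD library and at 22, 24 and 106 counts in THBru 1 to 3, or 0.305, 0.351 and 1.58 CPM. Pooled over the groups it was at least 53.7-fold higher in THBru, against 3 counts over the HFD group, or at least 13.4-fold against 12 counts. It was under the level minimum of the test. Its neighbour Ccno, the cyclin of basal body amplification, which ends 3067 bases before it on chromosome 13, stood at 0.221, 0.245 and 0.446 CPM in HFD and at 0.832, 1.65 and 52.2 CPM in THBru 1 to 3 (log2 fold change 5.84, SE 1.75, edgeR adjusted p = 0.18). Gmnc and Myb, which act at the start of the same programme, followed Foxj1 instead, with Gmnc at 11.5 CPM in THBru 2 and 2.25 CPM in THBru 3, and Myb at 14.7 and 4.67 CPM. In the list of 12 multiciliogenesis regulators, 6 were tested. The edgeR test called 0 of them in either direction, where it called 0.118% of all genes higher and 0% lower, with 2 higher at an unadjusted p under 0.05 (13.9% of all genes), and DESeq2 called 1 higher (10.3% of all genes). E2f5 had the smallest adjusted p (edgeR, 0.166, log2 fold change 1.06, SE 0.27), and E2f4, with the highest level in any library after Ccno, had −0.14 (SE 0.20, edgeR adjusted p = 0.683).

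Promoters were read for the factors known to act on ciliary genes: RFX factors, which bind the X-box, and forkhead factors such as FOXJ1. A window from 250 bases before to 50 bases after the start (RefSeq, GRCm38.p6) was at hand for 39 of the 46 members. None was listed for Foxj1, Ttc25, Dnaaf1, Dnah3, Rsph1, Rsph4a or Rsph10b. The RFX core motif GTTGCCA, on either strand, was in 7 of the 39 windows (17.9%) and in 4.46% of 27025 windows of all genes. Of the 7 members with it, 5 had it within 20 bases of the start, against 18.8% of the 1206 windows of all genes with the core motif. The full palindromic X-box, searched as both arms with free bases between them, was in 0 of 39 windows and 0.444% of all, and the forkhead site GTAAACA in 2 of 39 (5.13%) and 3.55% of all. For members the window nearest the gene start was taken. For all genes it was the first window listed, without a limit on transcript type. The shares of members and of all genes are thus not like for like. A match is a run of letters, not a bound site. The 3 stretches below, each 100 bases 5′ to 3′ along the gene, are shown because these described members hold the core motif near the start (capitals, read on the opposite strand in Dnaaf2), at position 10 in Dnah10, −15 in Tekt1 and −10 in Dnaaf2, counted from 0 at the first transcribed base. The remaining matches lay at −12 in Drc1, 6 in Dnaaf4, −163 in Dnah7b and −195 in Mcidas. The stretches are chr5:124725015-124725114 (plus strand), chr11:72361853-72361952 (minus strand) and chr12:69198400-69198499 (minus strand).
Dnah10: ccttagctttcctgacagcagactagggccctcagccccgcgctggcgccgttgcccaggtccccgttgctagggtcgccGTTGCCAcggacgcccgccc
Tekt1: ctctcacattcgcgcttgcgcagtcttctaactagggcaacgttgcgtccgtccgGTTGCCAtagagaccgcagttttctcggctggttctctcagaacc
Dnaaf2: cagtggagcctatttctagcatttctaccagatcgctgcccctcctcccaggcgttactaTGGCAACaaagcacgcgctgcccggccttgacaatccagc

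Outer arm heavy chains, the main force-producing motors of the axoneme, divided into a ciliary and a sperm-tail set. Dnah11 stood at 0.143, 0.115 and 0 CPM in HFD 1 to 3 and at 2.27, 71.4 and 20.1 CPM in THBru 1 to 3, so that every THBru library lay above every HFD library. Dnah5 stood at 0.0779, 0.0866 and 0 CPM in HFD and at 0.0832, 57.4 and 18.6 CPM in THBru, and Dnah9, the distal outer arm chain, had 0, 0 and 2 counts in HFD and 28, 3917 and 907 in THBru. Mutations of DNAH5 and DNAH11 cause primary ciliary dyskinesia in humans. Per length the ciliary chains were close to each other in THBru 2, at 4.80, 3.57 and 3.49 FPKM for Dnah11, Dnah5 and Dnah9. The log2 fold changes were 8.35 for Dnah11 (SE 1.67, edgeR adjusted p = 0.136) and 8.66 for Dnah5 (SE 2.32, edgeR adjusted p = 0.171). Neither passed in edgeR, while DESeq2 called both higher, with adjusted p of 1.26e-08 and 1.32e-05. For Dnah9 the ratio of pooled levels was 2574, with an exact counting interval of 712 to 21257. That interval leaves out the spread between libraries, and most THBru counts came from THBru 2. Dnah9 did not pass in edgeR either (adjusted p = 0.137), while DESeq2 called it higher (adjusted p = 4.51e-08). Dnah11 lies on chromosome 12 at 117877982 to 118199043 and Dnah9 on chromosome 11 at 65831282 to 66168551, both on the minus strand, and Dnah5 on chromosome 15 at 28203752 to 28472052, plus strand.

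Dnah8 and Dnah17, the outer arm chains of the sperm tail, did not share that pattern. Dnah8 stood at 1.87, 0.751 and 0.676 CPM in HFD and at 0.222, 1.07 and 4.14 CPM in THBru 1 to 3, and Dnah17 at 1.32, 2.5 and 1.72 CPM in HFD and at 0.929, 1.9 and 4.12 CPM in THBru. Both were within the HFD range in THBru 2 and highest in THBru 3. Tekt5, a tektin of the sperm flagellum, was also highest in THBru 3, at 1.03 CPM against 0.512 in THBru 2, 0.139 in THBru 1 and 0 to 0.13 CPM in HFD. Rsph6a, a spoke protein of sperm, had 15 counts in THBru 3 and 2 in the other libraries together. The list of 14 sperm and spermatid genes was highest in the same library, at 6.61 to 9.12 CPM in HFD, 8.47 CPM in THBru 1, 25.9 CPM in THBru 2 and 100.5 CPM in THBru 3. Its members Prm1, Odf1 and Akap4 stood at 0, 0.117 and 0.176 CPM in THBru 2 and at 2.01, 15.1 and 12.8 CPM in THBru 3. Others were ordered differently: Spata18, which made up most of the sum in THBru 2, stood at 16.1 CPM there and 11.2 CPM in THBru 3, Acrv1 was highest in THBru 1 at 3.52 CPM, and Spaca1 was lower in THBru 3, at 0.982 CPM, than in HFD, at 3.00 to 3.94 CPM. None of the 4 members was at the level minimum, so none was tested, and the part of sperm transcripts in their levels was not tested.

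Inner arm heavy chains, which set the shape of the beat, were above the HFD range in THBru 2 for 10 of 10 members and in THBru 3 for 9, where 41.2% and 47% of all genes were. Dnah6 stood at 3.82, 6.91 and 6.68 CPM in HFD and at 0.374, 54.3 and 17.0 CPM in THBru 1 to 3. Dnah12 stood at 1.77, 0.823 and 0.892 CPM in HFD, was listed at 0 counts in THBru 1, and reached 49.2 and 9.09 CPM in THBru 2 and THBru 3. Both chains were thus lower in THBru 1 than in any HFD library, by total count, as were 7 of the 10 in all, where 42.8% of all genes were. Dnah10 stood at 1.25, 1.75 and 1.18 CPM in HFD and at 0.624, 44.5 and 14.5 CPM in THBru. The log2 fold changes were 1.9 for Dnah6 (SE 1.27, adjusted p = 0.386), 3.92 for Dnah12 (SE 2.02, adjusted p = 0.285) and 3.70 for Dnah10 (SE 1.21, adjusted p = 0.188) in edgeR. Dnah1 stood at 0.203 to 1.13 CPM in HFD and at 0.402, 22.8 and 15.5 CPM in THBru, and Dnah2 at 0.390 to 1.73 CPM in HFD and at 0.430, 28.6 and 10.4 CPM in THBru. Without THBru 2 the fold changes of Dnah6, Dnah12 and Dnah10 were 0.53, 1.9 and 2.41.

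Dnah3 differed from the other inner arm chains in its HFD levels. It stood at 1.94, 20 and 9.30 CPM in HFD 1 to 3, so that HFD 2 and HFD 3 exceeded THBru 3 at 7.08 CPM, while THBru 1 had 0.929 and THBru 2 29.4 CPM. The 5-gene mesothelium list, also highest in HFD 2 within HFD, summed to 62.9, 389 and 20.1 CPM in HFD 1 to 3. It summed to 109, 72.8 and 175 CPM in THBru 1 to 3. Krt19, also in the general epithelium list, made up most of the sums in THBru 1 and THBru 3, at 100.5 and 121 CPM. The place of THBru 1 above THBru 2 in the sum rests on Krt19. Within THBru, Msln, Upk3b and Lrrn4 were lowest in THBru 1, at 1.15, 1.41 and 1.28 CPM, as was Dnah3. Wt1 was lowest in THBru 3, at 3.41 CPM. Msln and Upk3b were higher in THBru 3 than in THBru 2, unlike Dnah3, Lrrn4 and Wt1. All genes of the list were higher in HFD 1 than in HFD 3, unlike Dnah3. The part of mesothelium in the Dnah3 level was not tested. Dnah3 had a log2 fold change of 0.12 (SE 1.19, edgeR adjusted p = 0.958), or −1.35 without THBru 2. Dnah7a, Dnah7b and Dnah7c are near-copies: 45.7 to 52.8% of the 31-base words of each transcript were shared with its closest copy, so their separate counts are uncertain. Per length the inner arm chains in THBru 2 differed among themselves, with Dnah6 and Dnah12 at 3.98 FPKM each, Dnah10 at 2.68, Dnah3 at 2.00, Dnah2 at 1.86, Dnah1 at 1.69 and Dnah7b at 0.947 FPKM, and Dnah14, Dnah7a and Dnah7c were at 0.0912 to 0.188 FPKM.

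Among the smaller dynein chains, some were present in every library. Dnal1, the outer arm light chain that binds the motor domain, stood at 16.2, 17.1 and 18.1 CPM in HFD and at 12.7, 46.5 and 51.1 CPM in THBru 1 to 3. Dnal4, another light chain, stood at 11.3, 7.65 and 10.7 CPM in HFD and at 9.29, 15.4 and 15.7 CPM in THBru. For both, THBru 2 and THBru 3 were nearly equal, whereas Dnah11, Dnah5 and Dnah9 differed between these libraries. Dnali1, an inner arm light chain, was at 0.130, 0.289 and 0.162 CPM in HFD, 0.139 CPM in THBru 1, 20.5 CPM in THBru 2 and 5.09 CPM in THBru 3. The intermediate chains Dnaic1 and Dnaic2 reached 6.03 and 12.3 CPM in THBru 2 and were at 0.0832 and 0.166 CPM in THBru 1, below all HFD libraries. The log2 fold changes were 1.11 for Dnal1 (SE 0.33, adjusted p = 0.179), 0.58 for Dnal4 (SE 0.23, adjusted p = 0.213) and 5.31 for Dnali1 (SE 1.55, adjusted p = 0.177) in edgeR.

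Ttc25, which encodes a docking complex subunit that holds outer arms to the doublet, had the smallest p of all members. It stood at 0.649, 0.346 and 0.716 CPM in HFD 1 to 3 and at 1.93, 12.6 and 12.4 CPM in THBru 1 to 3. Every THBru library was above every HFD library, and THBru 2 and THBru 3 were nearly equal. The log2 fold change was 3.94 (SE 0.66, edgeR adjusted p = 0.111). Ttc25 passed when THBru 1 was left out (4.31, adjusted p = 0.0464, a setting in which 0.489% of genes were called higher) and when THBru 2 was left out (3.72, adjusted p = 0.044, where 5.06% of genes were called higher and 4.55% lower), and not when THBru 3 was (3.67, adjusted p = 0.176). It lies on chromosome 11 at 100545607 to 100571963, plus strand.

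Assembly factors, which fold and join dynein arms in the cytosol before they enter the cilium, were led by 3 genes present in every library. Dnaaf5 was at 11.9, 13.1 and 11.2 CPM in HFD and at 8.18, 18.5 and 13.7 CPM in THBru 1 to 3, Dnaaf2 at 6.01, 5.27 and 4.34 CPM in HFD and at 4.44, 7.70 and 5.19 CPM in THBru. Dnaaf3 stood at 7.79, 3.06 and 3.39 CPM in HFD and at 4.41, 17.7 and 5.57 CPM in THBru. In each of the 3 the groups overlapped. Their log2 fold changes were 0.25 (SE 0.22, adjusted p = 0.497), 0.30 (SE 0.32, adjusted p = 0.576) and 1.01 (SE 0.58, adjusted p = 0.326) in edgeR. Dnaaf1 differed, at 0.584, 0 and 0.0676 CPM in HFD 1 to 3 against 1.05, 6.09 and 4.35 CPM in THBru 1 to 3, and Dnaaf4 reached 5.43 and 3.87 CPM in THBru 2 and THBru 3.

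The rulers and the nexin link set the spacing of arms and spokes along the doublet and join neighbouring doublets. Ccdc40 stood at 0.571, 0.361 and 0.311 CPM in HFD and at 0.569, 36.4 and 12.2 CPM in THBru 1 to 3. Its partner Ccdc39 stood at 3.05, 2.66 and 1.84 CPM in HFD and at 2.39, 34.7 and 10.9 CPM in THBru, so both were within the HFD range in THBru 1. Drc7, a nexin link subunit, stood at 0.208, 0.0722 and 0 CPM in HFD and at 0.111, 29.9 and 6.98 CPM in THBru. Drc3 and Drc1, further subunits of that link, reached 21.5 and 13.9 CPM in THBru 2, 7.60 and 5.85 CPM in THBru 3, and at most 0.818 and 0.375 CPM in HFD. The 5 members of this class were above the HFD range in both THBru 2 and THBru 3, where 41.2% and 47% of all genes were above it in each. The log2 fold changes were 5.17 for Ccdc40 (SE 1.29, adjusted p = 0.162), 2.58 for Ccdc39 (SE 0.79, adjusted p = 0.181) and 6.87 for Drc7 (SE 2.15, adjusted p = 0.183) in edgeR.

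Radial spoke genes formed 2 kinds. Rsph3a and Rsph3b, of the spoke stalk, were high in every library, at 22.3 to 26.1 and 23.0 to 27.7 CPM in HFD and at 24.5, 27.5 and 33.4 and 28.3, 27.9 and 46.9 CPM in THBru 1 to 3. They share 80.1 to 80.7% of their 31-base words, so their separate counts are uncertain. Rsph4a, of the spoke head, stood at 0.195, 0.173 and 0 CPM in HFD and at 0.0832, 36.8 and 10.7 CPM in THBru, and Rsph1, another head protein, reached 19.5 and 13.4 CPM in THBru 2 and THBru 3. Rsph10b stood at 0.693 to 2.28 CPM in HFD and at 0.638, 26.0 and 7.34 CPM in THBru, and Rsph14 was listed at 0 counts in HFD and THBru 1 and at 138 and 46 counts in THBru 2 and THBru 3. The log2 fold changes were 0.44 for Rsph3a (SE 0.25, adjusted p = 0.313), 0.59 for Rsph3b (SE 0.29, adjusted p = 0.269) and 6.84 for Rsph4a (SE 2.2, adjusted p = 0.186) in edgeR.

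Rsph9, also of the spoke head, was by total count the one member highest in THBru 1. With TMM factors Rsph3a, Rsph3b, Dnal4 and Dnaaf2 were highest there too. Rsph3a then stood at 38.7, 23.1 and 29.9 CPM in THBru 1 to 3. By total count Rsph9 stood at 1.03, 1.08 and 1.07 CPM in HFD 1 to 3. It stood at 14.1, 6.44 and 4.72 CPM in THBru 1 to 3, so the groups did not overlap. The log2 fold change was 3.41 (SE 0.76, edgeR adjusted p = 0.151), and Rsph9 passed only when THBru 2 was left out (3.73, adjusted p = 0.0485), among the 6 fits that left out 1 library. In THBru 1 it stood beside Rsph4a at 0.0832 CPM, under every HFD library that had a count of Rsph4a, and Rsph1 at 0.846 CPM, within the HFD range. THBru 1 is the library with the seminal vesicle transcripts, whose part in the Rsph9 level was not tested. Rsph9 lies on chromosome 17 at 46122035 to 46144216, minus strand.

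Tektins, filament proteins of the doublet wall, again differed among themselves. Tekt1 stood at 0.442, 0.621 and 0.649 CPM in HFD, was listed at 0 counts in THBru 1, and reached 18.1 and 4.99 CPM in THBru 2 and THBru 3. Tekt4 was listed at 0 counts in HFD and at 4, 447 and 119 counts in THBru. Pooled over the groups it was at least 202-fold higher against 3 counts over HFD, or at least 50.4-fold against 12 counts. These limits leave out the spread between libraries. Tekt4 did not pass in edgeR (adjusted p = 0.178), while DESeq2 called it higher (adjusted p = 0.000118). Tekt2 stood at 2.48, 3.44 and 2.11 CPM in HFD and at 1.11, 6.51 and 2.72 CPM in THBru, so that only THBru 2 exceeded the HFD range. Tekt3 had 8, 0 and 0 counts in HFD and 4, 56 and 21 in THBru. The log2 fold changes were 3.60 for Tekt1 (SE 1.88, adjusted p = 0.289) and 0.34 for Tekt2 (SE 0.55, adjusted p = 0.713, and −0.27 without THBru 2) in edgeR.

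**Figure D2:**
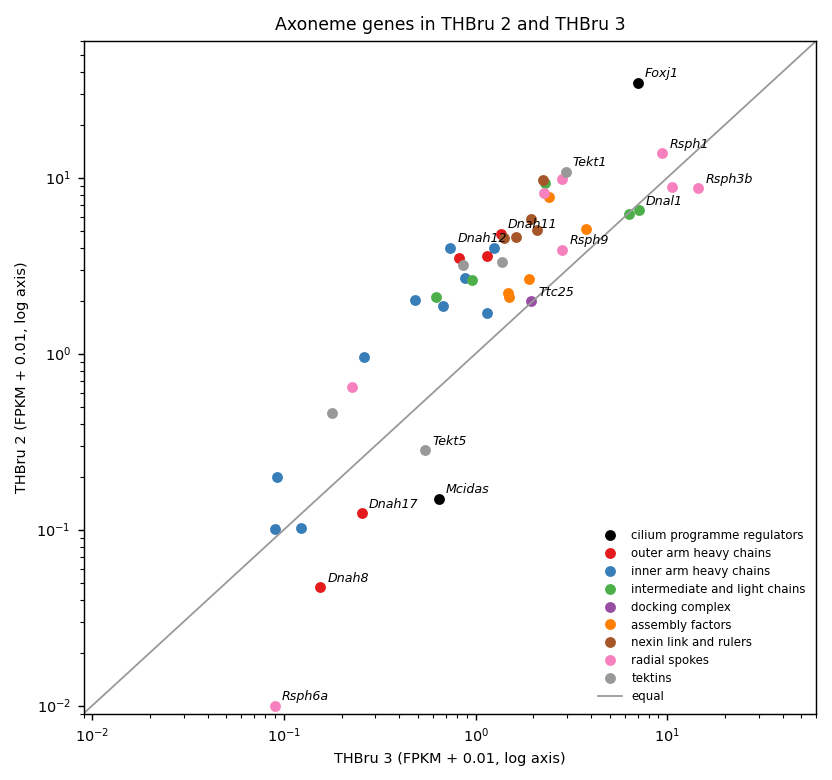
Levels per length of the 46 axoneme genes in THBru 3 (horizontal) and THBru 2 (vertical), both as FPKM + 0.01 on log axes, coloured by role, with the line of equal levels. Most points lie above the line, while Dnah8, Dnah17, Tekt5, Mcidas, Rsph6a, Rsph3b, Rsph3a, Dnal1, Dnal4 and Dnah14 lie below it.

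THBru 2 exceeded THBru 3 by a median factor of 2.72 over the 45 members with more than 3 counts in both. The median over all genes tested with such counts was 1.08. The 45 include members under the minimum level, which the genes tested leave out, so the sets are unlike. For 26 of the 45 the factor was 2 to 5, with Foxj1 at 4.88, Dnah9 at 4.25, Dnah11 at 3.55, Rsph4a at 3.45, Dnah5 at 3.09 and Ccdc40 at 2.99. It reached its highest value, 5.41, in Dnah12. It was under 1 for 9 members: Mcidas at 0.223, Dnah8 at 0.258, Dnah17 at 0.461, Tekt5 at 0.499, Rsph3b at 0.594, Dnah14, Rsph3a, Dnal1 and Dnal4. This compares 1 library with another, without replicates.

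**Figure D3:**
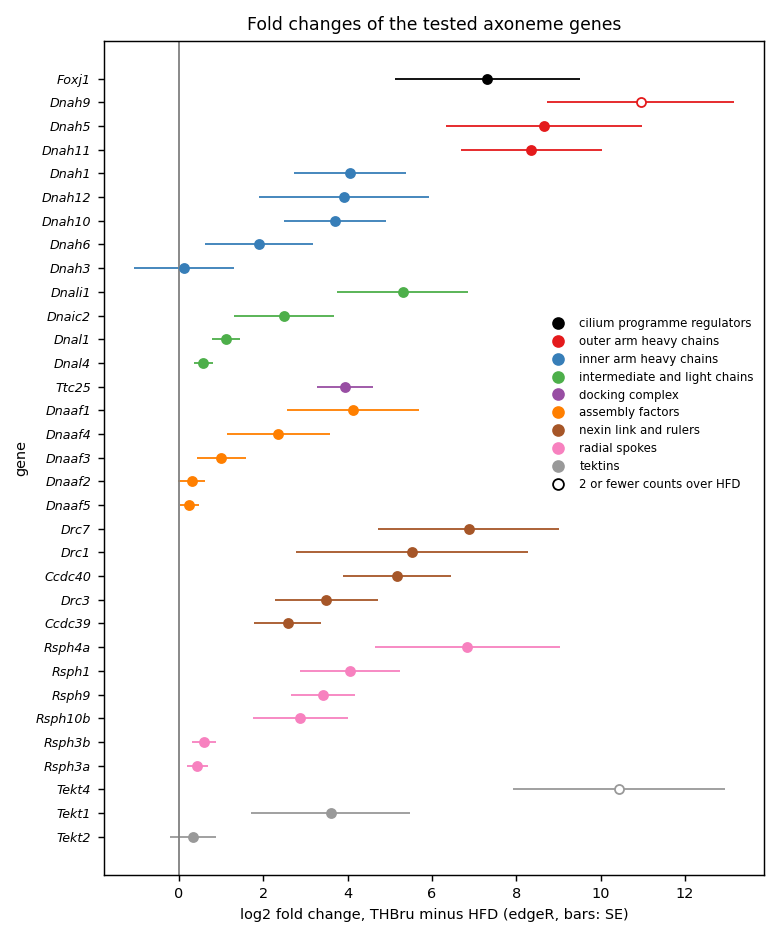
Log2 fold changes of THBru against HFD (edgeR) with their SE for the 33 axoneme genes tested, by role. Points are all right of 0, from 0.12 in Dnah3 to the outer arm chains, and open points mark Dnah9 and Tekt4, whose fitted values rest on 2 or fewer counts over HFD.

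With the libraries compared as groups of 3, no member passed the edgeR test. Of the 46 members, 33 reached the minimum mean level of 0.5 FPKM and were tested, and 23 of these reached it only with the THBru libraries, so their direction was partly fixed by the filter. The edgeR test called 0 members in either direction, where 0.118% of 16140 genes were called higher and 0% lower. At an unadjusted p under 0.05 there were 20 members, all higher, where 13.9% of genes were higher and 8.93% lower. DESeq2 called 20 members higher and 0 lower, where it called 10.3% of genes higher and 6.83% lower. The groups did not overlap for 10 of the 46 members, all higher in THBru, where 8.07% of genes were so, or 15 with TMM factors, where 11.7% were. Among the 33 tested these were 7, where 10.4% of genes tested were so, or 12 with TMM factors, where 16.7% were. Some of the 10 by total count were set apart by small margins. In THBru 1, Dnah7a had 3 counts and Tekt4 had 4, against 0 in each HFD library, where 0 allows up to 3 counts. Tekt5 stood at 0.139 CPM in THBru 1 against 0.13 CPM in HFD 1. Rsph3b stood at 27.9 CPM in THBru 2 against 27.7 CPM in HFD 3. The 33 fold changes had a median of 3.60 and were all positive (31 without THBru 2), where the median of all genes tested was 0.08 and 54.4% were positive. Given the filter, that count and median are a description of the tested members and no support for a difference.

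The median of the members was 4.15 without THBru 1, 2.29 without THBru 2 and 3.79 without THBru 3. Of the 13 members under the minimum level, Dnaic1 was nearest to it, at a mean of 0.494 FPKM, and Dnah1 was the lowest member above it, at 0.503 FPKM. Without any minimum, 46 members were tested, 46 were positive and 0 passed, where 28 of 32759 genes were called higher and 0 lower. The median was then 3.41 for the members and 0.21 for all genes. Mcidas, Rsph14, Tekt4 and Dnah7a, at 0 counts in HFD, could only be positive, so the count of positive members is a description.

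Other ciliary and dynein genes were read in the same fits. Among all genes tested, 13.9% were higher and 8.93% lower at an unadjusted edgeR p under 0.05. DESeq2 called 10.3% higher and 6.83% lower, and 54.4% of the edgeR fold changes were positive. Of 34 ciliated epithelium genes outside the rule, 29 were tested, and edgeR called 0 in either direction. At an unadjusted p under 0.05, 23 were higher, while DESeq2 called 21 higher. Of the 29, 28 were positive, with a median of 5.27. Several of them, such as Dynlrb2, were at or near 0 in HFD and reached the minimum level through THBru 2 and THBru 3, so this count and median are partly fixed by the filter and only describe the genes tested. Mns1, a protein inside the doublets, had the smallest adjusted p there (edgeR, 0.156, log2 fold change 3.23, SE 0.73), and like Rsph9 it was highest in THBru 1, at 31.7 CPM against 15.4 in THBru 2, 11.9 in THBru 3 and 1.86 to 3.39 CPM in HFD. The 32 genes of intraflagellar transport and the primary cilium, machinery that most cell types share, summed to 576 to 595 CPM in HFD and to 411, 911 and 913 CPM in THBru 1 to 3. Of these 25 were positive with a median of 0.62. The edgeR test called 0 of the 32 in either direction, with 12 higher at an unadjusted p under 0.05, and DESeq2 called 11 higher. The gene Wdr34, an intermediate chain of the transport dynein, was lowest in adjusted p (edgeR, 0.127, log2 fold change 1.33, SE 0.25). Dync2h1, the heavy chain of that dynein, had 1.57 (SE 0.30, edgeR adjusted p = 0.133), while the abundant Ift172 and the kinesin gene Kif3b had 0.29 and −0.35. The 10 genes of cytoplasmic dynein, the motor of ordinary transport, summed to 1191 to 1342 CPM in HFD and to 746, 1131 and 1354 CPM in THBru. Of these 9 were tested, 1 was positive and the median was −0.17. The edgeR test called 0 of the 9 in either direction, with 1 lower at an unadjusted p under 0.05, and DESeq2 called 1 lower. The heavy chain Dync1h1 had −0.05 (SE 0.30), Dync1li2 −0.03, Dynlrb1 −0.59 and Dynlt1b −0.46.

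**Figure D4:**
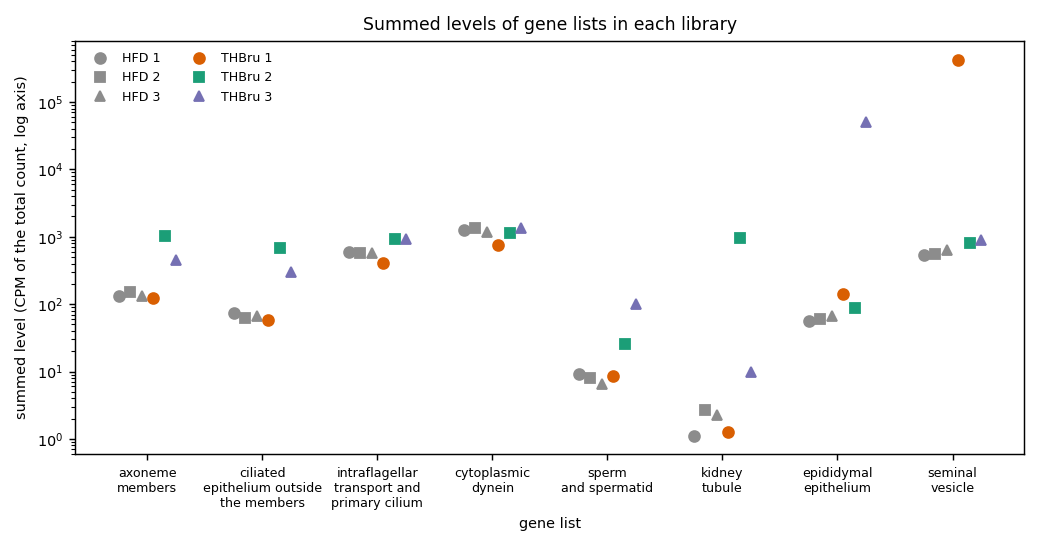
Summed levels of 8 gene lists in each library, in CPM of the total count on a log axis, with HFD libraries in grey. Axoneme and other ciliated epithelium genes are high in THBru 2 and THBru 3, whereas kidney genes are high in THBru 2, epididymal and sperm genes in THBru 3 and seminal vesicle genes in THBru 1.

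Across the 46 members, log2(FPKM + 0.5) correlated between libraries with Pearson r of 0.948 to 0.978 within HFD, 0.855 to 0.889 between HFD and THBru 1, 0.664 to 0.706 between HFD and THBru 3, and 0.379 to 0.406 between HFD and THBru 2. Between THBru libraries r was 0.846 for THBru 2 and THBru 3, 0.674 for THBru 1 and THBru 3, and 0.339 for THBru 1 and THBru 2. These values describe 46 genes that share a library each, and genes are not replicates. In every HFD library the highest levels per length were those of Rsph3a and Rsph3b, with Rsph3a at 7.19 to 8.32 FPKM and Rsph3b at 7.16 to 8.64 FPKM, ahead of Dnal4 at 3.08 to 4.57 FPKM and Dnaaf5 at 3.09 to 3.59 FPKM. In THBru 1 Rsph9, at 8.49 FPKM, stood beside Rsph3a at 7.82 and Rsph3b at 8.78 FPKM. In THBru 2 Foxj1, Rsph1 at 13.8 FPKM, Tekt1 at 10.8 FPKM, Rsph4a at 9.81 FPKM, Drc7 at 9.72 FPKM and Dnali1 at 9.34 FPKM led, all of them under 1 FPKM in every HFD library.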

How the data were processed

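Whole-number counts per gene and FPKM values, both deposited by the authors in 1 table, were used as named per the file headers. The submitters' processing notes list edgeR, DESeq2, StringTie 2.1.6, HISAT2 2.2.1 and cutadapt 1.9, and give none of them a role. Which program counted, with which strand setting and on which build, is not given in the sources used here. Among the 46 members, 40 have the coordinates of GENCODE M21 (GRCm38). Per the labels' protocols, poly(A) RNA was made into dUTP libraries and read in pairs.

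Rows sharing a symbol were summed. The edgeR 4.0.16 quasi-likelihood test (robust, TMM factors, R 4.3.3, two-sided) compared THBru with HFD without covariates on the 16140 genes whose FPKM averaged 0.5 or more, with Benjamini-Hochberg adjustment over all of them and a threshold of 0.05. SE is the log2 fold change divided by the root of F. Levels are CPM of the total count. Alternatives were DESeq2 1.42.0, limma 3.58.1 on log2(FPKM + 0.5), other filters and scalings, a replicate block, and leaving out each library. The steps were tested on simulated data.

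Named in full were Foxj1, Mcidas, Ttc25 and the 3 members of highest maximum CPM per role, and from each ciliary or dynein list the 2 genes of highest CPM and the 2 of smallest p; others were named after their values were seen. Members and lists were chosen with earlier results of these data known. Promoters were named where the core motif lay near the start. Protein sequences were not used here.

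A count of 0 allows up to 3 counts, 0.0390 to 0.0446 CPM in a single library. Intervals and limits cover counting error only. Among counts of 1 to 20, 31.2% were multiples of 4, where 25% of these whole numbers are, so 1 read pair may have given more than 1 count, and intervals would then be too narrow.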

Additional observations from a re-analysis of the deposited data

How the results depend on the processing

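The edgeR test called 19 genes among all, 0 to 1552 with 1 library left out (0 for each HFD library omitted, 79 without THBru 1, 23 without THBru 3 and 1552 without THBru 2), and 53 with total counts alone. DESeq2 called 2773, and limma 75, 122 and 56 with pseudocounts of 0.5, 0.1 and 1. Other filters, DESeq2 size factors and, chosen after seeing the data, counts divided by 4 gave 19 to 28. Among the axoneme members 0 were called, 20 by DESeq2 and 0 to 2 with 1 library left out: Ttc25 without THBru 1, and Ttc25 and Rsph9 without THBru 2. Among the 24 named members 0 were called, 14 by DESeq2 and 0 to 1 with 1 library left out. The cause of these differences was not tested. Over 366 fold changes of 23 named members under 16 alternatives (some give none), 1 turned its sign, Tekt2 at −0.27 without THBru 2 (−0.27 to 0.61 with 1 library left out).

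Total counts alone moved the median fold change of all genes from 0.08 to −0.05 and that of the 33 tested members from 3.60 to 3.75, with 33 positive in both. The members' median was 1.45, 1.98 and 0.99 in limma with pseudocounts of 0.5, 0.1 and 1, which shrink low genes, 2.65 with the replicate block and 2.29 to 4.15 with 1 library left out. Of the 33, 32 were positive with the limma pseudocount of 0.1, without HFD 1 and with the replicate block.

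With the replicate block, 0 genes and 0 members were called. Libraries that share a number did not deviate together (r = 0.0578, −0.0203 and −0.0677), so the numbers were not taken as pairs.

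Summed levels of the members were 121, 146, 123, 196, 856 and 411 TMM-scaled CPM in HFD 1 to 3 and THBru 1 to 3, and 36.3, 35.8, 34.2, 39.5, 214 and 105 FPKM. THBru 1 was thus below HFD by total count and above it on both other scales. Its higher FPKM sum rests on Rsph9, at 8.49 FPKM in THBru 1 against 0.606 to 0.638 FPKM in HFD. Depth limits Mcidas, Rsph14, Tekt4 and Dnah7a in HFD, all listed at 0 counts.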

Other observations

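Genes that were very high in 1 library were at low levels or at 0 in the HFD libraries. The seminal vesicle list stood in the HFD libraries at 0.125 to 0.149% of its THBru 1 level, the kidney tubule list at 0.116 to 0.28% of its THBru 2 level and the epididymal epithelium list at 0.112 to 0.128% of its THBru 3 level. For axoneme genes, Foxj1 stood in HFD at 0.159 to 0.294% of its THBru 2 level, Dnah11 at 0 to 0.2%, Dnah5 at 0 to 0.151%, Dnah9 at 0 to 0.0472% and Rsph4a at 0 to 0.529%. Other members stood nearer to their THBru 2 level, such as Dnah6, at 3.82 to 6.91 CPM in HFD and 54.3 CPM in THBru 2. The 46 members together stood in HFD at 12.9 to 14.6% of their THBru 2 level. Most of that HFD sum came from Rsph3a, Rsph3b, Dnal1, Dnaaf5 and Dnal4, which were present in every library. Whether reads passed between libraries was not tested.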
